A study of Arabidopsis thaliana with 4 samples.

Results

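The CYP78A genes of Arabidopsis thaliana encode cytochrome P450 monooxygenases that set the size of seeds, fruits and other organs. The family was taken as 6 loci chosen by gene identifier, CYP78A5 to CYP78A10, of 37051 loci in the count table. Their transcripts were read in funiculi, the stalks that join seeds to the fruit wall, dissected at stage 17, after fertilisation. The tested plants were seedstick (stk) mutants and the controls were wild-type (wt) plants of the Columbia ecotype, all kept at 22 °C with 16 h of light and 8 h of dark. Each genotype had 2 biological replicates, and each library was made from polyadenylated RNA of 100 pooled funiculi. The STK protein is a MADS-box factor that specifies ovules, and the study set out to compare the funiculus transcriptome with and without its function. The labels name neither the stk allele nor the age of the plants.

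Plant CYP78A enzymes sit in the endoplasmic reticulum and are thought to make a mobile growth signal whose chemical identity is unsettled. CYP78A5, known as KLUH, acts in the mother tissue around the embryo sac and raises seed size by prolonging cell division there. CYP78A6, known as EOD3, and CYP78A9 act redundantly in the maternal integuments, where loss of both gives smaller seeds and extra expression gives larger ones. CYP78A7 acts redundantly with CYP78A5 in shoot growth.

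Library totals were 4033589 and 12099218 counts in stk and 5757066 and 10229588 counts in wt, in the order of the replicate numbers. Pearson's r of log2 CPM, the count scaled to the library total, over 18092 genes was 0.777 between the stk libraries and 0.753 between the wt libraries, while across genotypes r was 0.697 for the libraries numbered 1 and 0.878 for those numbered 2. Genes are not independent replicates, so no p is attached to these values. STK (AT4G09960) itself stood at 238 and 326 CPM in stk, against 374 and 555 CPM in wt (edgeR log2 fold change -0.72 ± 0.43 SE, Benjamini-Hochberg adjusted p = 1). The values do not check the genotype labels, because a count over the whole gene also counts a mutant transcript. STK overlaps AT4G09950 on the other strand in the TAIR10.1 annotation, and the library kit is not stranded.

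CYP78A6 and CYP78A9 supplied nearly all CYP78A counts in funiculi of either genotype. CYP78A5, CYP78A8 and CYP78A10 were at or near 0, while CYP78A7 was read at 7.92 CPM in wt replicate 1 and at 0.66 CPM or less elsewhere. Together CYP78A6 and CYP78A9 made up 100% and 99.0% of the family's counts in the stk libraries and 92.3% and 100% in the wt libraries. The summed level of the family was 38.0 and 77.3 CPM in stk, against 103 and 222 CPM in wt, scaled by edgeR's TMM method. The lowest wt sum thus lay above the highest stk sum. Such a separation with stk lower was found for 16.6% of single tested genes, and CYP78A6 taken alone overlapped between genotypes. The mean was 57.7 ± 27.8 CPM in stk and 163 ± 84.5 CPM in wt (SD, n = 2 each).

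**Figure D1:**
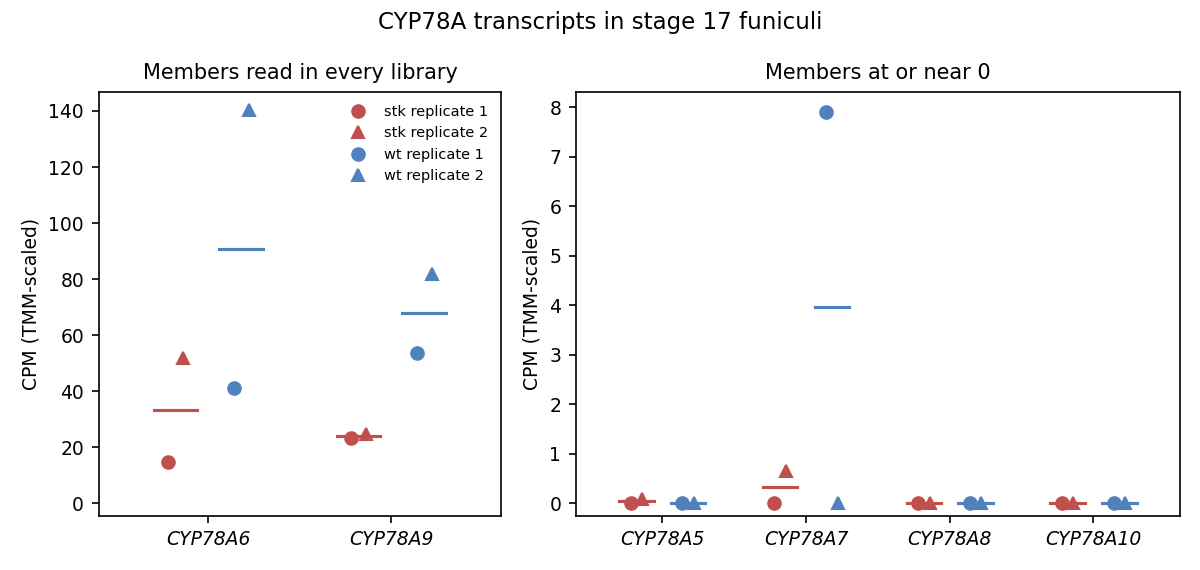
CPM of the 6 CYP78A members (y axis, TMM-scaled, linear) in the 4 libraries. Points are libraries, shapes give the replicate number and bars give the genotype mean. In the left panel CYP78A9 stands near 24.0 CPM in the stk libraries and higher in the wt libraries, while CYP78A6 spreads widely within each genotype. In the right panel, on its own scale, the highest point is CYP78A7 in wt replicate 1, at 7.92 CPM.

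CYP78A9 (AT3G61880), which promotes fruit and seed growth, was the member with the clearest separation between genotypes. It stood at 23.3 and 24.8 CPM in stk, from 90 and 301 counts. In wt it stood at 53.8 and 81.9 CPM, from 299 and 892 counts. Both stk libraries lay below both wt libraries, and the stk values were close to each other. The means were 24.0 ± 1.04 CPM in stk and 67.8 ± 19.9 CPM in wt (SD, n = 2 each), so the stk level was 0.354 of the wt level by the edgeR estimate. Its log2 fold change of -1.50 ± 0.47 (SE) had a 95% interval from -2.60 to -0.40. In edgeR's quasi-likelihood test it had an unadjusted p of 0.0141 and did not pass after adjustment over all 18092 tested genes (Benjamini-Hochberg adjusted p = 1).

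CYP78A6 (AT2G46660), which promotes maternal control of seed size, had a log2 fold change close to that of CYP78A9 but a much wider spread. It stood at 14.8 and 51.8 CPM in stk, from 57 and 630 counts. In wt it stood at 41.2 and 140 CPM, from 229 and 1530 counts. The groups overlapped, since stk replicate 2 lay above wt replicate 1. The means were 33.3 ± 26.2 CPM in stk and 90.8 ± 70.2 CPM in wt (SD, n = 2 each). The log2 fold change was -1.44 ± 0.76 (SE), with a 95% interval from -3.19 to 0.32 that includes 0 (edgeR unadjusted p = 0.0949, adjusted p = 1).

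The spread of CYP78A6 between libraries exceeded its counting error. The lowest of its 4 counts, 57 in stk replicate 1, had an exact 95% Poisson interval from 43.2 to 73.9 counts, or 10.7 to 18.3 CPM before TMM scaling. The interval in stk replicate 2 was 48.1 to 56.3 CPM, and that in wt replicate 1 was 34.8 to 45.3 CPM. Such intervals cover counting error only. Within stk the library numbered 2 held 3.51 times the CYP78A6 level of the library numbered 1, and within wt it held 3.41 times. For CYP78A9 the same ratios were 1.06 in stk and 1.52 in wt. The labels do not say whether equal numbers mark a shared batch.

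Neither of the 2 tested members passed a test adjusted over all genes. edgeR called 0.00553% of 18092 genes, which is 1 gene that rose in stk and is not a member, and 0.0% were called lower. At an unadjusted p under 0.05 edgeR placed 1.14% of tested genes lower in stk, among them CYP78A9. DESeq2 called 0.956% of genes in either direction, 0.283% lower in stk, and limma-voom 0.205%, 0.0553% lower. CYP78A9 was not among them, with an adjusted p of 0.389 in DESeq2 and 0.678 in limma-voom. For CYP78A6 the adjusted p was 1 in both tools. Groups that did not overlap, with stk lower, were found for 16.6% of tested genes, CYP78A9 among them. Both tested members had a negative log2 fold change, as did 54.2% of tested genes. A log2 fold change as low as that of CYP78A6 or lower was found for 7.52% of tested genes. In bulk funiculi, fewer cells that express a gene and less RNA per cell cannot be told apart.

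The estimate for CYP78A9 moved little when a library was left out, while that for CYP78A6 depended on each of the 4. The log2 fold change of CYP78A9 lay between -1.75 and -1.15 in these 4 fits. That of CYP78A6 was -0.79 without stk replicate 1 and -2.63 without stk replicate 2. It was -2.04 without wt replicate 1 and -0.29 without wt replicate 2. Each of these CYP78A6 values differed from the estimate with all libraries by over 1.5 times on the linear scale, and none turned positive.

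**Figure D2:**
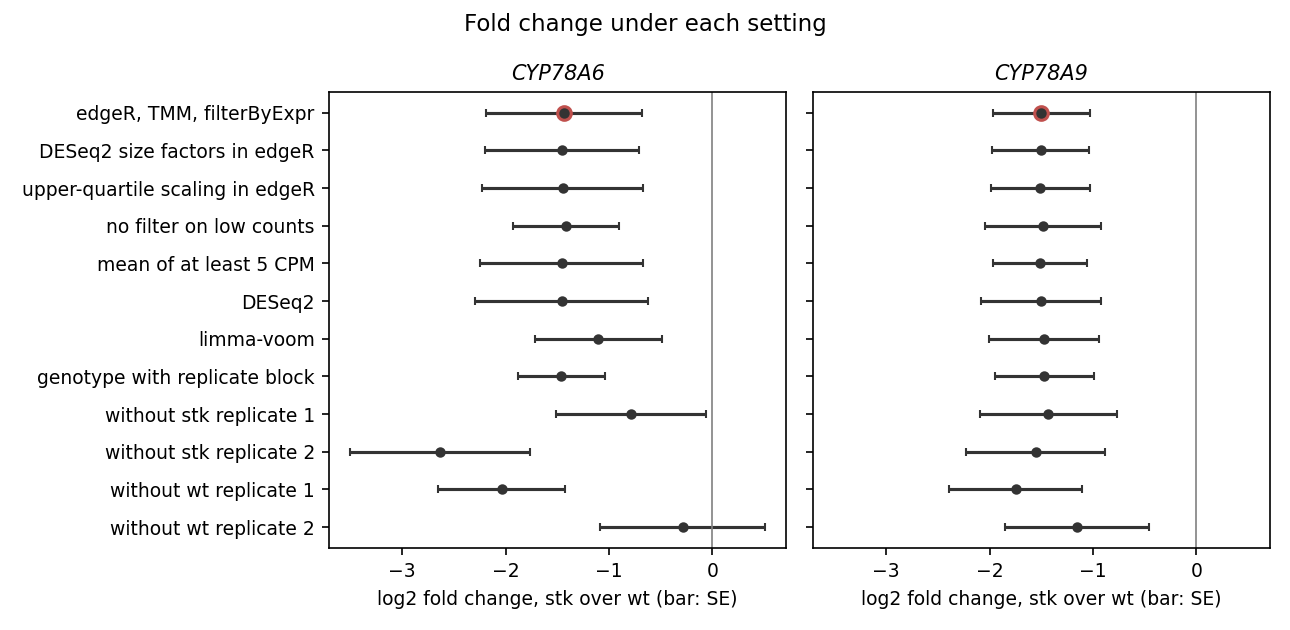
Log2 fold change of stk over wt (x axis, bars are SE) for CYP78A6 on the left and CYP78A9 on the right under each setting (rows). The top row is the edgeR estimate with all 4 libraries. The CYP78A6 point shifts between -2.63 and -0.29, and the CYP78A9 point stays between -1.75 and -1.15.

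The 4 other members did not pass the filter on low counts of the edgeR fit with all libraries. Without that filter CYP78A7 and CYP78A5 had an edgeR adjusted p of 1, and DESeq2 gave CYP78A7 an adjusted p of 1. CYP78A7 (AT5G09970) had 0 and 8 counts in stk, against 44 and 0 counts in wt. These correspond to 0 and 0.66 CPM in stk and to 7.92 and 0 CPM in wt. A single library of each genotype held all its reads, so the genotypes overlapped. CYP78A5 (AT1G13710) had 1 count in all, in stk replicate 2. That count is under the 3 counts that a count of 0 allows, so the gene was not detectable at this depth. CYP78A8 (AT1G01190) and CYP78A10 (AT1G74110), whose roles are less known, had 0 counts in every library. A count of 0 allows up to 3 counts, which is 0.744 and 0.248 CPM in the stk libraries and 0.521 and 0.293 CPM in the wt libraries, before TMM scaling.

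Levels of different members were compared per kb of transcript, using the longest annotated transcript of each gene. CYP78A6 averaged 16.4 ± 12.9 CPM per kb in stk and 44.8 ± 34.6 CPM per kb in wt (SD, n = 2 each). CYP78A9 averaged 12.5 ± 0.54 CPM per kb in stk and 35.3 ± 10.3 CPM per kb in wt. The 2 genes did not differ beyond their spread in either genotype. CYP78A7 followed at 0.15 ± 0.22 CPM per kb in stk and 1.83 ± 2.59 CPM per kb in wt, and CYP78A5, CYP78A8 and CYP78A10 were at or near 0. Among all loci read in a library, 43.0% and 56.9% stood below CYP78A9 per kb in the stk libraries and 71.3% and 85.1% in the wt libraries. For CYP78A6 the shares were 28.8% and 74.6% in stk and 61.9% and 91.5% in wt. These shares also move with depth, since deeper libraries read more weak loci.

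Which of the 2 expressed members was the more abundant changed between libraries of the same genotype. CYP78A9 made up 61.2% of the CYP78A6 and CYP78A9 counts in stk replicate 1 and 32.3% in stk replicate 2. It made up 56.6% in wt replicate 1 and 36.8% in wt replicate 2. The exact 95% binomial intervals were 52.8% to 69.1% and 29.3% to 35.4% in stk, against 52.3% to 60.9% and 34.9% to 38.8% in wt, and they cover counting error only. The libraries numbered 1 thus held more counts of CYP78A9 than of CYP78A6, and those numbered 2 held fewer, in either genotype. Per kb of transcript CYP78A9 stood at 1.67 and 0.505 times CYP78A6 in stk and at 1.4 and 0.616 times CYP78A6 in wt.

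**Figure D3:**
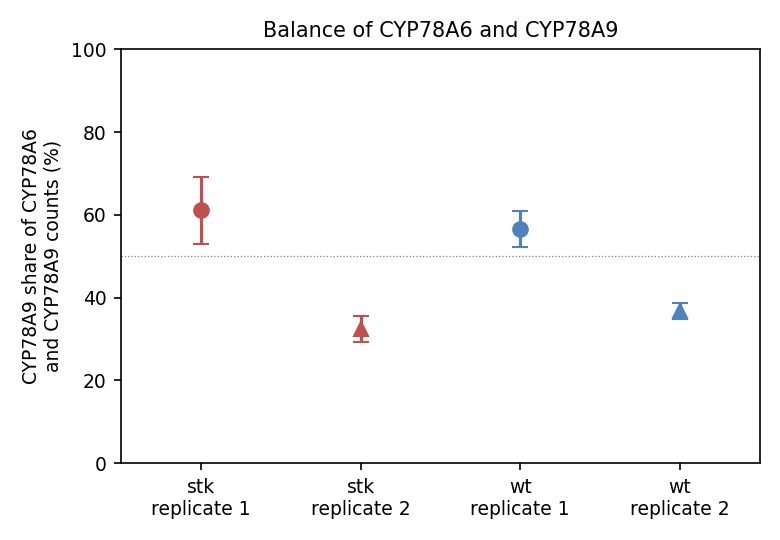
Share of CYP78A9 in the summed counts of CYP78A6 and CYP78A9 (y axis, percent) in each library (x axis). Bars are exact 95% binomial intervals and the dotted line marks equal counts. Replicate 1 of each genotype lies above the line, at 61.2% in stk and 56.6% in wt, and replicate 2 of each lies below it.

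The members were then set beside the other cytochrome P450 genes, a large class of haem enzymes that oxidise hormones, lipids and defence compounds. The TAIR10.1 gene table names 240 P450 loci, of which 151 were read and 94 tested. In edgeR 0 P450 genes passed, with 7 higher and 6 lower in stk at an unadjusted p under 0.05. Of all tested genes, 2.22% and 1.14% lay there. DESeq2 called 4 P450 genes and limma-voom 0, against 0.956% and 0.205% of all genes. The median log2 fold change of the tested P450 genes was 0.14, with 52 positive and 42 negative, against a median of -0.08 over all tested genes. That P450 median was -0.040 without stk replicate 1 and -0.0096 without stk replicate 2, and 0.71 without wt replicate 1. CYP78A9 had the fifth lowest p of the 94, and it and CYP78A6 held ranks 13 and 15 from the lowest log2 fold change. By mean level per kb CYP78A6 ranked 19 and CYP78A9 27 of the 240.

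Among P450 genes the lowest p belonged to CYP90D1, an enzyme of brassinosteroid synthesis. CYP90D1 stood at 35.5 and 32.7 CPM in stk, against 110 and 139 CPM in wt (log2 fold change -1.87 ± 0.41 SE; edgeR adjusted p = 0.522; DESeq2 adjusted p = 0.0141). Its groups did not overlap, as with CYP78A9. The lowest p values on the higher side were those of CYP71A24 and CYP86A7. CYP71A24 stood at 85.9 and 137 CPM in stk, against 3.96 and 18.0 CPM in wt (DESeq2 adjusted p = 0.00457). CYP86A7, of a family that hydroxylates fatty acids, stood at 18.6 and 45.2 CPM in stk, against 2.88 and 4.04 CPM in wt (DESeq2 adjusted p = 0.0398). The most abundant P450 genes, by mean CPM and also per kb of transcript, were CYP709B1, CYP707A3, which breaks down abscisic acid, and ROT3, which acts in brassinosteroid synthesis. CYP709B1 stood at 561 and 189 CPM in stk, against 733 and 28.6 CPM in wt. Its groups overlapped, and it was lowest in wt replicate 2, where CYP78A6 was highest.

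**Figure D4:**
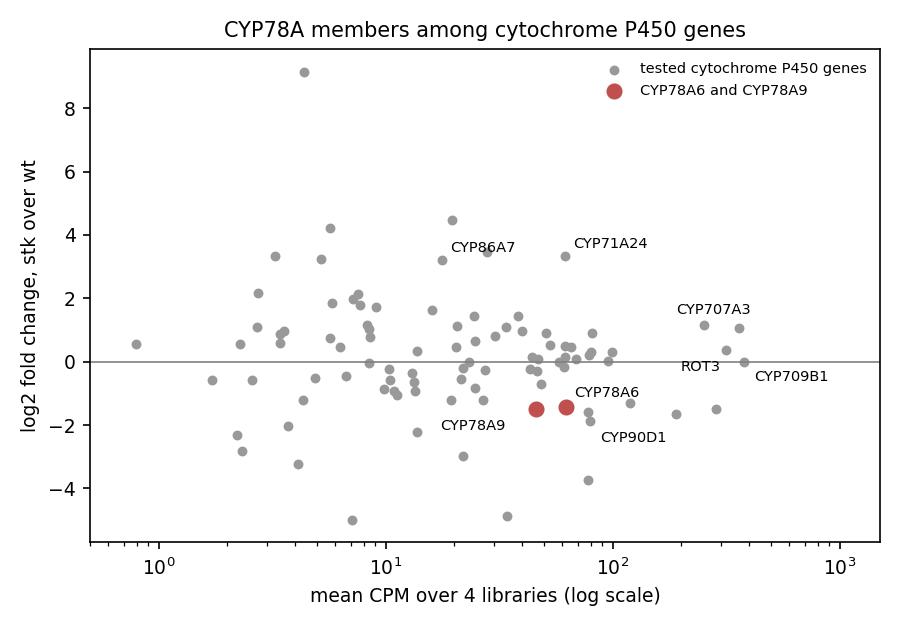
Log2 fold change of stk over wt (y axis) against mean CPM over the 4 libraries (x axis, log scale) for the 94 tested P450 genes. Grey points are P450 genes and red points are CYP78A6 and CYP78A9, at -1.44 and -1.50, below the scatter's median of 0.14.

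P450 enzymes draw electrons from reductases and cytochrome b5 proteins, and transcripts of all 8 partners listed were read in every library. All 8 were tested and 0 passed in edgeR, DESeq2 or limma-voom, with 0 at an unadjusted edgeR p under 0.05. Of the 8, 5 were positive and 3 negative in log2 fold change, and the median was 0.36. ATR1, a P450 reductase, stood at 60.0 and 85.7 CPM in stk, against 135 and 74.4 CPM in wt. ATR2, the other reductase, stood at 469 and 278 CPM in stk, against 302 and 199 CPM in wt, with overlapping groups. CB5-B, a cytochrome b5, had the lowest p of the list, at 209 and 117 CPM in stk and 77.4 and 109 CPM in wt (edgeR log2 fold change 0.80 ± 0.46 SE, adjusted p = 1). Both reductases and CB5-B were thus read in every library in which CYP78A6 and CYP78A9 were read. ATR1, CB5-B, CB5-D and CB5-E each share part of their length with a gene annotated on the other strand.

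Other genes of seed size were mostly read in the funiculus, and 0 passed in edgeR, DESeq2 or limma-voom. Of 8 genes of the maternal ubiquitin pathway, which limits cell proliferation in integuments, 8 were tested, 3 positive and 5 negative, with a median log2 fold change of -0.46. TCP14, a transcription factor, stood at 8.28 and 6.42 CPM in stk, against 40.3 and 12.2 CPM in wt (edgeR log2 fold change -1.84 ± 0.92 SE, adjusted p = 1). AT1G78420, listed as DA2, a ubiquitin ligase that restricts seed size, stood at 114 and 66.3 CPM in stk, against 38.5 and 71.5 CPM in wt. In that pathway 4 of 8 genes did not overlap with stk lower, and 0 with stk higher, against 16.6% and 15.9% of all tested genes.

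Of 7 maternal transcription factors of seed size, 5 were tested, 2 positive and 3 negative, with a median of -0.42. AP2, which restricts seed size, stood at 90.1 and 73.8 CPM in stk, against 64.2 and 51.4 CPM in wt. ARF2, a repressor of auxin responses that limits integument growth, stood at 308 and 265 CPM in stk, against 397 and 370 CPM in wt. Neither gene's groups overlapped, and the edgeR adjusted p was 1 for each. Groups did not overlap for 15.9% of all tested genes with stk higher and for 16.6% with stk lower. Of 7 zygotic genes of seed size, which act in endosperm and embryo, 4 were tested, 1 positive and 3 negative, with a median of -0.57. ABI5 and CKX2, those with the lowest p, had edgeR adjusted p of 1. At an unadjusted edgeR p under 0.05 none of the tested genes in these 3 lists passed.

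Brassinosteroid genes were listed because several are P450 enzymes that promote seed and fruit growth. Of 12 listed, 11 were tested, 6 positive and 5 negative, with a median log2 fold change of 0.04. None passed in edgeR (2 lower at an unadjusted p under 0.05, as were 1.14% of all tested genes) or limma-voom, and DESeq2 called 1, CYP90D1, against 0.956% of all genes. Groups did not overlap for 3 genes with stk lower and for 3 with stk higher, against 16.6% and 15.9% of all tested genes. DWF4, ROT3 and BIN2 were those with stk higher. ROT3 and BIN2 each overlap an annotated gene, that of ROT3 on the other strand. BR6OX2, which carries out the last step to brassinolide, stood at 40.6 and 142 CPM in stk, against 346 and 233 CPM in wt (edgeR log2 fold change -1.66 ± 0.62 SE, adjusted p = 1). Its stk values lay below its wt values, as did those of CYP78A9 and CYP90D1. That median was -0.044 when stk replicate 2 was left out, -0.094 without wt replicate 2 and 0.26 without wt replicate 1.

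**Figure D5:**
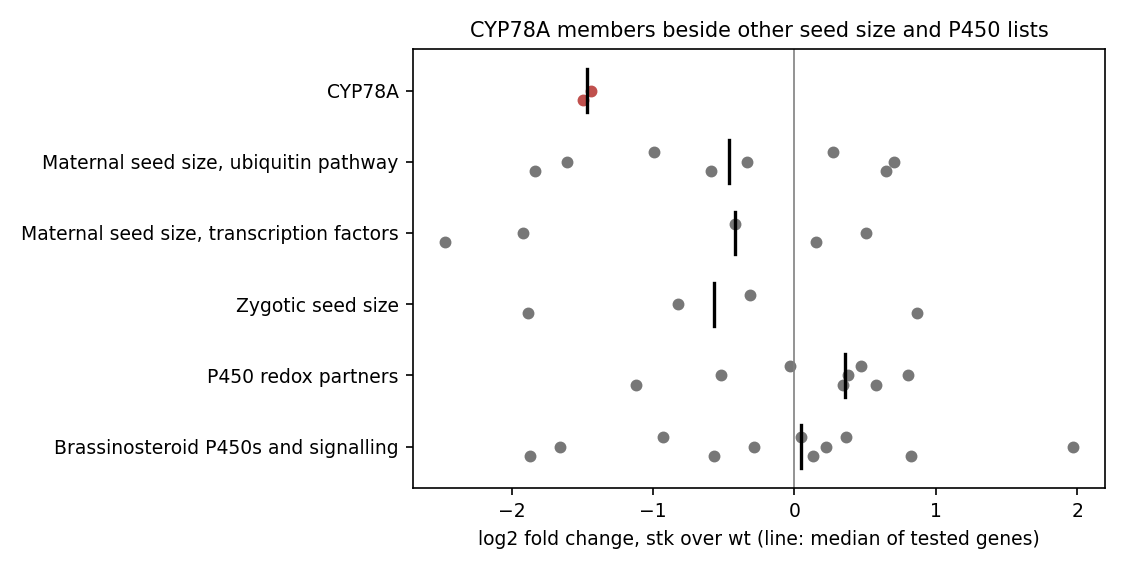
Log2 fold change of stk over wt (x axis) of the tested genes of each list (rows), with the median as a black line. The 2 tested CYP78A members lie near -1.47, the medians of the seed size lists between -0.57 and -0.42, and those of the P450 partner and brassinosteroid lists at 0.36 and 0.04.

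Sums of tissue and cell type marker lists differed between the same libraries, and their part in the CYP78A values was not tested. Of 5 phloem markers all were read in every library, and they summed to 1475 and 735 CPM in stk and to 1839 and 448 CPM in wt. The phloem sum was higher in the libraries numbered 1, where CYP78A6 was lower. DESeq2 called 2 of the 5 phloem genes higher in stk, the sieve element genes SEOR1 and SEOa. It called 0.956% of all genes in either direction. In edgeR 0 phloem genes passed, with 2 higher at an unadjusted p under 0.05, where 2.22% of all tested genes lay. SUC2, APL and HA3 had negative log2 fold changes (-0.13, -0.38 and -0.41) with overlapping groups, and the list median was -0.13. SEOa stood at 175 and 90.4 CPM in stk, against 37.2 and 28.5 CPM in wt. Embryo markers, read for 5 and 2 of 7 genes in stk and 5 and 4 of 7 in wt, summed to 68.1 and 0.41 CPM in stk and to 240 and 1.29 CPM in wt. Xylem wall markers, 6 of 6 read everywhere, summed to 1391 and 167 CPM in stk and to 227 and 65.9 CPM in wt. Of the 6, 3 were higher at an unadjusted edgeR p under 0.05, where 2.22% of all tested genes lay, and 0 passed after adjustment. Markers of septum and transmitting tract, 3 and 4 of 6 read in stk and 3 and 4 of 6 in wt, summed to 14.5 and 34.6 CPM in stk and to 103 and 76.8 CPM in wt. That sum separated the genotypes as CYP78A9 did, with HEC1 and HEC2 at 0 in every library. The 3 tested genes of this list had groups that did not overlap with stk lower, as did 16.6% of all tested genes. Of these, 2 were lower at an unadjusted edgeR p under 0.05, where 1.14% of all tested genes lay, and 0 passed after adjustment.

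The remaining marker lists varied as well. Seed coat markers, where the integuments go on to form the coat, were read for 4 and 7 of 7 genes in stk and for 6 and 6 of 7 in wt, and summed to 172 and 199 CPM in stk and to 91.9 and 147 CPM in wt. BAN, TT8, TT10 and TT12 were each at 0 in at least 1 library. Mean CPM in stk was below that in wt for BAN (3.37 against 6.87), TT8 (0.53 against 3.33) and TT12 (0.21 against 0.86). It was above that in wt for TT2, MUM4, MUM2 and TT10. TT2 and MUM4 made up most of the sum in every library, the groups of TT2 overlapped, and MUM4 overlaps a gene on the other strand. Endosperm markers were read for 1 and 4 of 7 genes in stk and for 2 and 3 of 7 in wt, and summed to 29.8 and 13.2 CPM in stk and to 5.76 and 6.70 CPM in wt. The seed coat and endosperm sums thus separated the genotypes too, with stk higher, as did 15.9% of single tested genes. FIS2 made up most of the endosperm sum in every library, at 29.8 and 8.39 CPM in stk and 5.22 and 4.13 CPM in wt. FIS2 overlaps AT2G35680 on the other strand. AGL62, the only other endosperm marker tested, had overlapping groups. PHE1 and IKU2 were at 0 in every library. Pollen markers, 3 and 3 of 4 read in stk and 4 and 4 of 4 in wt, summed to 873 and 296 CPM in stk and to 479 and 447 CPM in wt. Valve and replum markers were read for 4 and 5 of 5 genes in stk and for 4 and 4 of 5 in wt, and they summed to 94.7 and 98.2 CPM in stk and to 99.0 and 84.7 CPM in wt.

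Genes whose pattern over the 4 libraries was most like that of a member were taken by the distance of mean-centred log2 CPM among 15586 genes. Nearest to CYP78A6 were AT5G62550, AT2G43550 and AT3G26380. AT5G62550 stood at 2.85 and 11.5 CPM in stk, against 8.28 and 30.6 CPM in wt, a distance of 0.116 on the log2 scale. Nearest to CYP78A9 were AT5G47060, AT1G09800 and SETH6. AT5G47060 stood at 97.8 and 94.2 CPM in stk, against 185 and 313 CPM in wt, a distance of 0.199. With 4 libraries such a likeness is common: 3.74% of these genes had r over 0.95 with CYP78A6 and 1.03% with CYP78A9. The patterns of the 2 members were 1.46 apart, with 3890 genes closer to CYP78A9 than CYP78A6 was and 1331 genes closer to CYP78A6 than CYP78A9 was.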

How the data were processed

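The authors deposited raw read counts per gene, with a column per library and no pooling. STAR 2.7.0, Trimmomatic 0.38 and featureCounts 1.6.3 are named, per the submitters' processing notes, beside R (version written as 1.30.1) and DESeq2 1.38.3, without their roles. The sources used here state no genome build, strand setting or rule for multi-mapping reads, so reads shared by paralogs could be split or lost, and no coordinates or sequences are printed. Every one of the 37051 loci was found in the TAIR10.1 gene table, used for names, transcript lengths and overlaps; no CYP78A member overlaps an annotated gene.

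Counts were tested with edgeR 4.0.16 (R 4.3.3): quasi-likelihood test, TMM scaling, filterByExpr (18092 genes), a model with genotype alone and a Benjamini-Hochberg threshold of 0.05. CPM of single genes and list sums use TMM-scaled totals of the tested genes, and floors use library totals. SE comes from the F statistic. DESeq2 1.42.0 and limma 3.58.1 were alternatives, as were 2 other scalings, 2 other filters, a replicate block and each library left out. The tests were checked on simulated counts. With 2 replicates per genotype, p-values set the genotype difference against the spread between these samples, estimated in part from the other genes.

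The family and the gene lists were chosen with earlier results of these data known. Of 107 list entries, 3 were left out because the reference did not give the locus that name. Named genes were STK, all members, the 2 genes of lowest p in the seed size, P450 and brassinosteroid lists, the P450 genes of lowest p and highest level, any P450 partner or NGATHA-like gene, and genes next to members. Marker genes named as 0, the phloem genes and the brassinosteroid genes with stk higher were chosen after their values were seen. So were the endosperm and seed coat genes named. The balance of CYP78A6 and CYP78A9, and the list medians without single libraries, were also added after the data were seen.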

Additional observations from a re-analysis of the deposited data

How the results depend on the processing

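The direction of CYP78A6 and CYP78A9 was negative under all 11 alternatives for each, and neither passed an adjusted threshold in any. The log2 fold change ranged from -2.63 to -0.29 for CYP78A6 (adjusted p from 0.129 to 1) and from -1.75 to -1.15 for CYP78A9 (adjusted p from 0.345 to 1), and both ranges were set by leaving out a library. The count of genes past the threshold was 1 in edgeR with all libraries, 1 with either other scaling, 0 with a minimum mean of 5 CPM, 275 with no filter, 172 in DESeq2, 37 in limma-voom and 169 with the replicate block. It lay between 5 and 198 with a library left out. The cause of these differences was not tested. Same-numbered libraries deviated together (r = 0.245 over genes), but with 2 pairs and no shared batch in the labels the numbers give no pairing. With the replicate block CYP78A6 was at -1.46 (adjusted p = 0.212) and CYP78A9 at -1.47 (adjusted p = 0.345). The median of P450 genes was -0.040 and -0.0096 without stk replicate 1 and 2, and 0.71 without wt replicate 1. That of brassinosteroid genes was -0.044 without stk replicate 2, and 0.26 and -0.094 without wt replicate 1 and 2. With coding length or no length term, the mean log2 ratio of CYP78A9 over CYP78A6 stayed negative in each genotype. The ratio still changed sign between the libraries of each genotype, so the mean ranks neither gene above the other. The 3 genes nearest each member were unchanged at a prior count of 0.5. Without a filter CYP78A7 had a log2 fold change of -3.41 ± 3.56 (SE), and no alternative gave CYP78A8 or CYP78A10 a value.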

Other observations

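CB5-C, a cytochrome b5 gene that lies next to CYP78A6 on the opposite strand without overlapping it, stood at 41.7 and 27.4 CPM in stk, against 148 and 1.74 CPM in wt. It was highest in wt replicate 1 and lowest in wt replicate 2, where CYP78A6 was highest. AT3G61870 and HB-12, on either side of CYP78A9, had log2 fold changes of -0.36 ± 0.42 and -0.05 ± 0.48 (SE), against -1.50 ± 0.47 for CYP78A9. SOT16, next to the unread CYP78A10, stood at 329 and 167 CPM in stk, against 116 and 57.1 CPM in wt (edgeR log2 fold change 1.52 ± 0.53 SE, adjusted p = 1). AT1G74120, on the other side of CYP78A10, stood at 0 and 6.01 CPM in stk, against 15.8 and 10.5 CPM in wt. The genes on either side of CYP78A5, AT1G05027 and AT1G13720, had 0 counts in every library.

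DPA4, an NGATHA-like B3 factor known to repress CYP78A5, was read in every library, at 3.11 and 13.6 CPM in stk, against 1.08 and 5.14 CPM in wt. Its groups overlapped (edgeR log2 fold change 1.42 ± 1.73 SE, unadjusted p = 0.437), and a link to CYP78A5 was not tested. The related gene ABS2, also named NGAL1, stood at 0 and 0.91 CPM in stk, against 34.4 and 8.72 CPM in wt. DESeq2 called ABS2 lower in stk (adjusted p = 0.0237), while edgeR did not (adjusted p = 1).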
